A study of Mus musculus with 2 samples.

Results

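A block of 4 Mb on distal mouse chromosome 2 held one of the densest stretches of 5-hydroxymethylcytosine (5hmC) peaks in the data. It was defined as bases 166000001 to 170000000 of chromosome 2 in build mm9, and its members were the deposited peaks whose midpoint lay in it. There were 531 of them among 66883 peaks in all, 41 of 6726 at passage 5 and 490 of 60157 at passage 0. The block was chosen on its high passage 0 peak numbers and on the unequal share of those peaks that recurred at passage 5. Those numbers are therefore given as a description and with no test.

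The cells were mouse embryonic fibroblasts (MEFs), primary cells grown out of C57BL/6 embryos taken 13.5 days after conception. They were cultured in DMEM with fetal calf serum and collected at passage 5 or at passage 0, that is, after repeated replating or before any. Each passage had 1 library, and no other treatment or genotype separates them. Genomic DNA was sonicated, fragments with 5hmC were pulled down by GLIB, and the pulled-down DNA was sequenced. The labels do not say whether embryos were pooled, and no marker of cell identity can be read from a list of DNA peaks.

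5hmC is made from 5-methylcytosine by the TET dioxygenases. It is an intermediate on the way to unmethylated cytosine and also a mark that can stay in place, and in many tissues it is found in the bodies of active genes and at enhancers. GLIB puts a glucose on the hydroxymethyl group and a biotin on the glucose, so a peak marks a stretch of DNA that was pulled down and not a single base. The block holds Prex1, an exchange factor that activates Rac GTPases; Snai1, a zinc-finger repressor active in mesenchymal cells; Cebpb, a leucine-zipper transcription factor of adipocyte differentiation and inflammation; and Ptpn1, a tyrosine phosphatase that acts on the insulin receptor. In the RefSeq gene table of GRCm38.p6, a later build than that of the peaks, these 4 genes follow each other in this order. Between Prex1 and Snai1 that table has 12 protein-coding genes, among them Arfgef2, Stau1 and Slc9a8. It has 2 between Snai1 and Cebpb, Ube2v1 and Tmem189, and 0 between Cebpb and Ptpn1. After Ptpn1 come, among others, Nfatc2, Sall4, Zfp64 and Tshz2. Gene positions of that build were not set beside the mm9 peaks, so no peak is assigned to a gene here, and no mm9 sequence was used.

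The 4 megabases of the block carried similar numbers of peaks at passage 0, and at passage 5 the second of them held 30 of the 41 peaks. Counted from its start, the first megabase (bases 166000001 to 167000000) held 5 peaks at passage 5, against 132 at passage 0. The second (167000001 to 168000000) had 30 at passage 5 against 125 at passage 0. The third (168000001 to 169000000) had 3 at passage 5 against 102 at passage 0, and the fourth (169000001 to 170000000) had 3 at passage 5 against 131 at passage 0. The second megabase thus stood alone at passage 5, whereas at passage 0 it lay within the range of the other three.

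**Figure D1:**
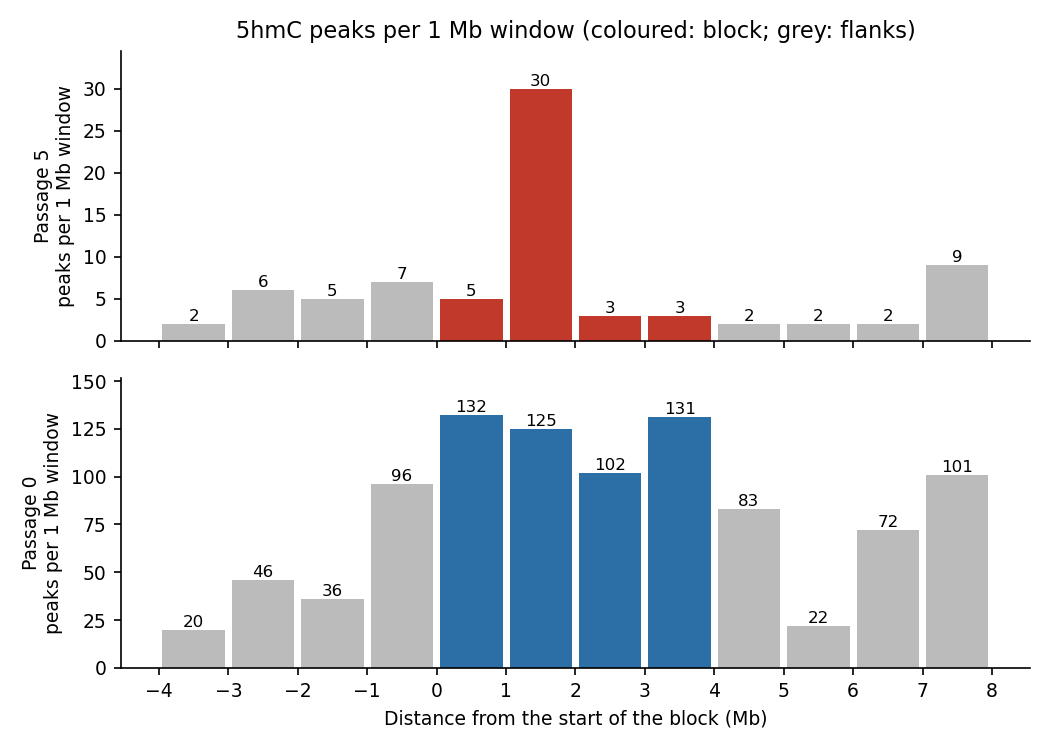
Peaks per 1 Mb window at passage 5 (upper panel) and passage 0 (lower panel), by distance in Mb from the start of the block, with the block coloured and 4 Mb of flank on each side in grey. At passage 5 the second megabase holds 30 peaks and the other three 3 to 5, while at passage 0 all of them hold 102 to 132.

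Expressed as a ratio, the passage 5 number came to 8.37% of the passage 0 number over the block (95% exact counting interval 5.93% to 11.5%). The same ratio was 11.2% over the whole series (10.9% to 11.5%). By megabase it was 3.79% in the first (1.21% to 9.06%), 24% in the second (15.5% to 36%), 2.94% in the third (0.597% to 8.84%) and 2.29% in the fourth (0.466% to 6.84%). Without the second megabase the ratio for the block was 3.01% (1.49% to 5.46%), 11 peaks at passage 5 against 365 at passage 0. Such intervals take the peaks to be independent and hold no error but that of counting. The read depth of each library is unknown and can move the number of called peaks, and replicates are lacking, so no difference between passages was tested.

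The flanks did not show the same step at passage 5. The 4 Mb before the block held 20 passage 5 peaks and 198 passage 0 peaks, a ratio of 10.1% (6.04% to 16%). The 4 Mb after it held 15 and 278 of them, or 5.4% (2.98% to 9.06%). The megabases that touch the block had 7 and 2 peaks at passage 5, before and after it, and 96 and 83 at passage 0. The borders of the block are round numbers and did not mark a break in the peaks. The last passage 0 midpoint before the block was at base 165998197, with a score of 241, and the first inside it at 166007430, with 89.5. At the far end the last passage 0 midpoint inside was at 169999689, with a score of 142, and the first outside at 170004547, with 90.8.

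Peaks of the block covered 24647 bases at passage 5 and 511562 bases at passage 0, which is 0.616% and 12.8% of its length. The covered length at passage 5 was thus 4.82% of that at passage 0, against 6.84% over the whole series. In the second megabase it was 14.5%, from 18254 bases at passage 5 and 125739 at passage 0. In the other three it was 1.25% to 2.2%. Both a smaller number and a smaller width entered these values: the median width in the block was 573 bp at passage 5 (quartiles 511 and 603) and 917 bp at passage 0 (755 and 1207). Over the whole series the medians were 563 bp at passage 5 and 850 bp at passage 0. Block peaks of passage 0 were therefore somewhat wider than the list at large, and those of passage 5 close to it.

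A passage 0 peak is called retained here when at least 1 of its bases lies in a passage 5 peak. In the block 30 of 490 passage 0 peaks were retained, which is 6.12% (95% exact interval 4.17% to 8.63%), against 7.63% of the whole passage 0 list. That share is near the background. It was made up of 20 of 125 peaks in the second megabase, or 16% (10.1% to 23.6%), and of far lower shares around it. The first megabase had 5 of 132, or 3.79% (1.24% to 8.62%). The third had 3 of 102, or 2.94% (0.611% to 8.36%), and the fourth 2 of 131, or 1.53% (0.185% to 5.41%). Without the second megabase, 10 of 365 were retained, or 2.74% (1.32% to 4.98%). The difference between the second and the first megabase was 12.2 percentage points. The shares inside the block are among the values on which it was chosen, so no interval is read against another or against the list.

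At 100 kb, the passage 0 profile rose and fell several times across the block, and the passage 5 profile followed only part of it. Of 40 windows of 100 kb, 18 held a passage 5 peak and 39 a passage 0 peak, with at most 7 peaks in a window at passage 5 and 27 at passage 0. Medians over the windows were 0 at passage 5 and 10.5 at passage 0. The 5 windows richest at passage 5 all lay in the second megabase. The window at 167.6 to 167.7 Mb came first with 7 passage 5 peaks and 25 passage 0 peaks. The windows starting at 167.2, 167.4 and 167.5 Mb each had 4 at passage 5, against 6, 11 and 15 at passage 0, and those starting at 167.1 and 167.7 Mb tied at 3, against 11 and 15, the first of them taken as the fifth. Across the second megabase 9 of 10 windows held a passage 5 peak, whereas 3 of 10 did in each of the other megabases.

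**Figure D2:**
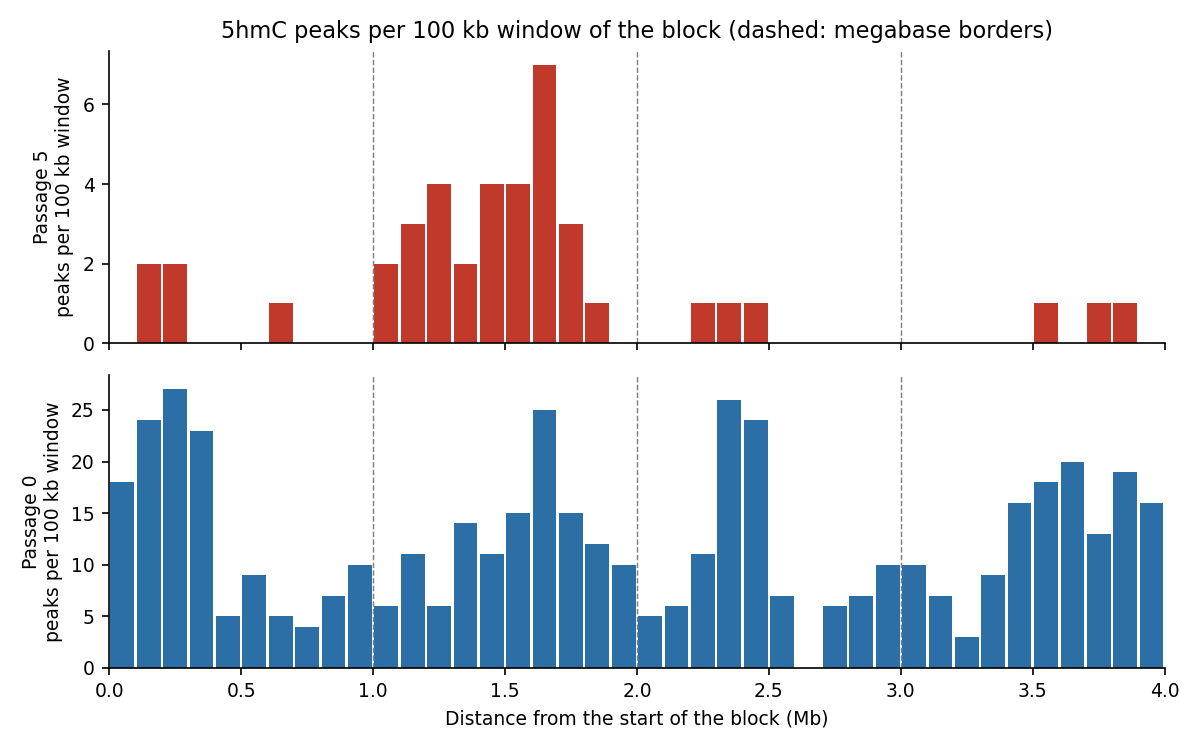
Peaks in each of the 40 windows of 100 kb at passage 5 (upper panel) and passage 0 (lower panel), by distance in Mb from the start of the block; dashed lines separate the megabases. Passage 5 peaks fill 9 of 10 windows of the second megabase, and the other high points of the passage 0 profile, with up to 27 peaks, carry at most 2 passage 5 peaks a window.

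The windows richest at passage 0 were spread over the first, the second and the third megabase. The window at 166.2 to 166.3 Mb held 2 passage 5 peaks and 27 passage 0 peaks, and that starting at 166.1 Mb held 2 and 24. The window starting at 168.3 Mb held 1 passage 5 peak and 26 passage 0 peaks, and that starting at 168.4 Mb held 1 and 24. Only the window at 167.6 Mb was among the 5 richest at both passages. One window, at 168.6 to 168.7 Mb, had 0 peaks in either list. With window borders moved by 50 kb no window was without a passage 0 peak and the highest passage 0 number was 30. That highest window lay at 166.15 to 166.25 Mb, and the lowest, with 1 passage 0 peak, at 168.65 to 168.75 Mb. Both overlap the places named above, so the exact numbers depended on the borders and the places changed little.

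In the first, the third and the fourth megabase the passage 0 peaks were gathered on a part of it. In the first 400 kb of the first megabase there were 4 passage 5 peaks and 92 passage 0 peaks, which covered 26.3% of the sequence at passage 0. In its other 600 kb there were 1 and 40, and the passage 0 peaks covered 6.06%. A stretch of 300 kb in the third megabase, made of the windows that start at 168.2, 168.3 and 168.4 Mb, held 3 passage 5 peaks and 61 passage 0 peaks, covering 22.2% at passage 0. In the last 600 kb of the fourth megabase there were 3 at passage 5 and 102 at passage 0, covering 17.6%. These stretches were marked off after the profile was seen. In the 3 dense ones 4.35%, 4.92% and 1.96% of the passage 0 peaks were retained, below the 16% of the second megabase, where the passage 0 peaks covered 12.6% of the sequence. In the sparser other 600 kb of the first megabase 2.5% were retained, 1 of 40 peaks. At 168.5 to 169.4 Mb 0 of 59 were, a count that allows up to 5.08%. The dense stretches of the first and the third megabase were thus above these sparser parts, as point values from few retained peaks. All 3 dense stretches were below the second megabase, whose retention was among the values on which the block was chosen. No difference between stretches was tested.

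Read along the chromosome, the passage 5 peaks of the second megabase formed a group with a longer empty interval on either side than any inside it. They spanned 796 kb, from base 167088618 to base 167884318, with a median gap of 16.7 kb and a longest gap of 165547 bases. Of the 110 passage 0 peaks that touch this span, 20 were retained, or 18.2%. The interval before the group, from the end of the last passage 5 peak of the first megabase, was 456 kb long and contained 29 passage 0 peaks. The interval after it was 355 kb long and contained 23. Spacing over the whole passage 5 list was not measured. The median over all 1 Mb windows was 1 passage 5 peak, so empty intervals of such length need not be unusual. The longest interval free of passage 5 peaks ran for 1.07 Mb, from base 168482677 to base 169549182. It contained 88 passage 0 peaks, of which 15 were among the 10% of the passage 0 list with the highest scores. The group was defined as the passage 5 peaks of the second megabase, and its ends as the outer borders of the first and the last of them. Its share is therefore that of the second megabase with the ends free of passage 5 peaks left out, and only a description.

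The scores of the passage 0 peaks did not set the second megabase apart. The score is the authors' own value per peak and was compared only within 1 list. In the passage 0 list the median score was 155 in the first megabase (quartiles 111 and 220.0), 147 in the second (104 and 234), 142 in the third (107 and 240.0) and 144 in the fourth (93.1 and 211). These medians lay close together, and the ranges between quartiles overlapped widely. Over the block the median was 146, against 129 for the whole list, and 79 of its 490 peaks, or 16.1%, were among the highest-scoring 10% of the list, which began at a score of 289.7. By megabase that class made up 15.2%, 15.2%, 16.7% and 17.6% of the peaks, in order along the chromosome. Block peaks therefore tended to score above the list, to about the same degree in each megabase. The median passage 0 widths were likewise close, at 939, 925, 924 and 890 bp.

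In the block, as in the list as a whole, passage 0 peaks that were retained scored higher than the others. Retained peaks had a median score of 273, with quartiles of 182 and 508, and block peaks with no passage 5 peak one of 144, with quartiles of 103 and 216. In the whole list the medians were 214 and 125. Retained block peaks were also wider, with a median of 1163 bp against 911 bp. The lowest-scoring retained peak had a score of 167.6 in the first megabase, 83.7 in the second, 234 in the third and 217 in the fourth. Only in the second megabase did a retained peak thus come near the lowest passage 0 score of 80. These minima were taken over 5, 20, 3 and 2 retained peaks, in order along the chromosome. A minimum tends to be lower over more peaks, and whether the second megabase differed beyond that was not tested.

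**Figure D3:**
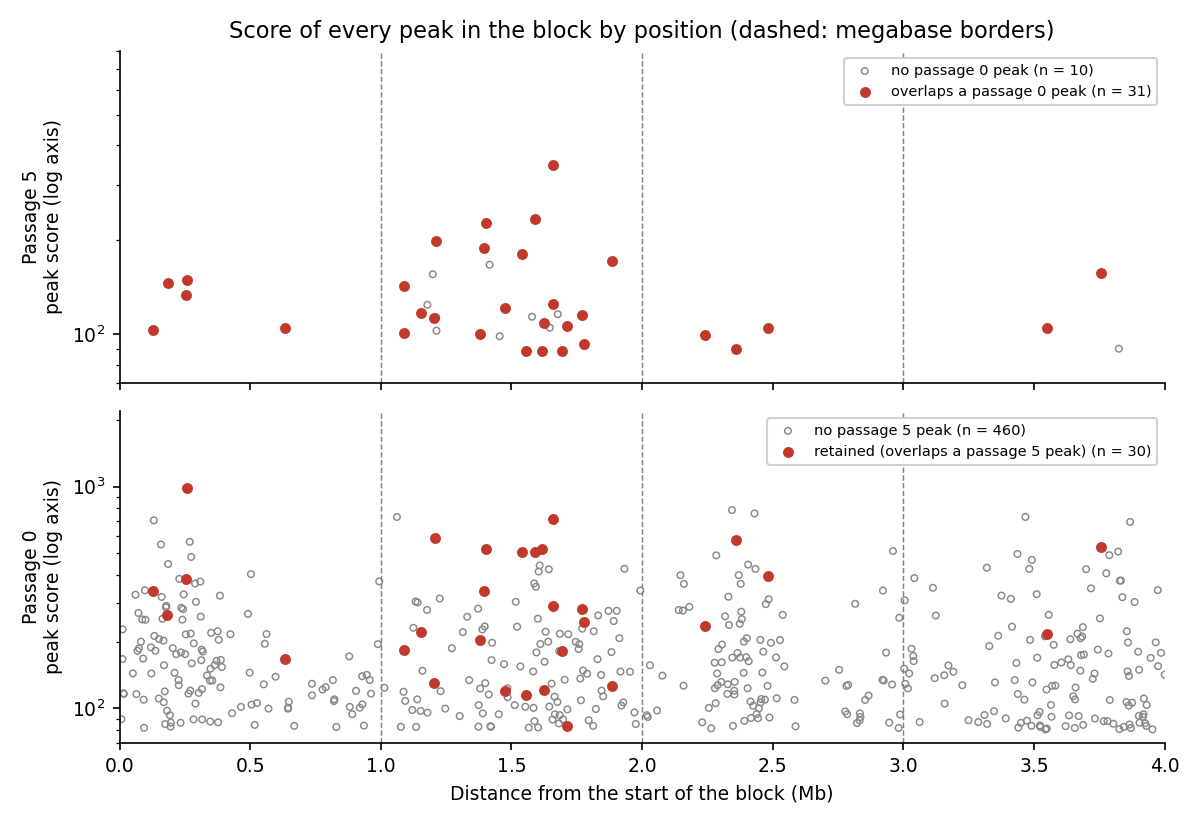
Score of every peak in the block (log axis) against distance in Mb from its start, at passage 5 (upper panel, 41 peaks) and passage 0 (lower panel, 490 peaks); filled points have a peak of the other list on them, open points have none, and dashed lines separate the megabases. Filled passage 0 points are many only in the second megabase, where they go down to a score of 83.7, although high-scoring open points occur in all of the megabases.

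The passage 0 list was cut into 4 classes of equal size by score, at 97.2, 129 and 192, to set peaks of like score beside each other. Over the whole list 2.52%, 4.0%, 6.66% and 17.3% of the peaks were retained, from the lowest to the highest class. In the second megabase 1 of 22, 4 of 30, 3 of 25 and 12 of 48 were retained, or 4.55%, 13.3%, 12% and 25%. In the first, the third and the fourth megabase together the numbers were 0 of 75, 0 of 76, 1 of 94 and 9 of 120, or 0%, 0%, 1.06% and 7.5%. Taken as 3 counts, a count of 0 allows a share of up to 4.0% in the lowest class and up to 3.95% in the next, and the exact upper limits are 4.8% and 4.74%. As point values, the second megabase was above the list in every class and the rest of the block below it, with few retained peaks in all but the highest class.

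**Figure D4:**
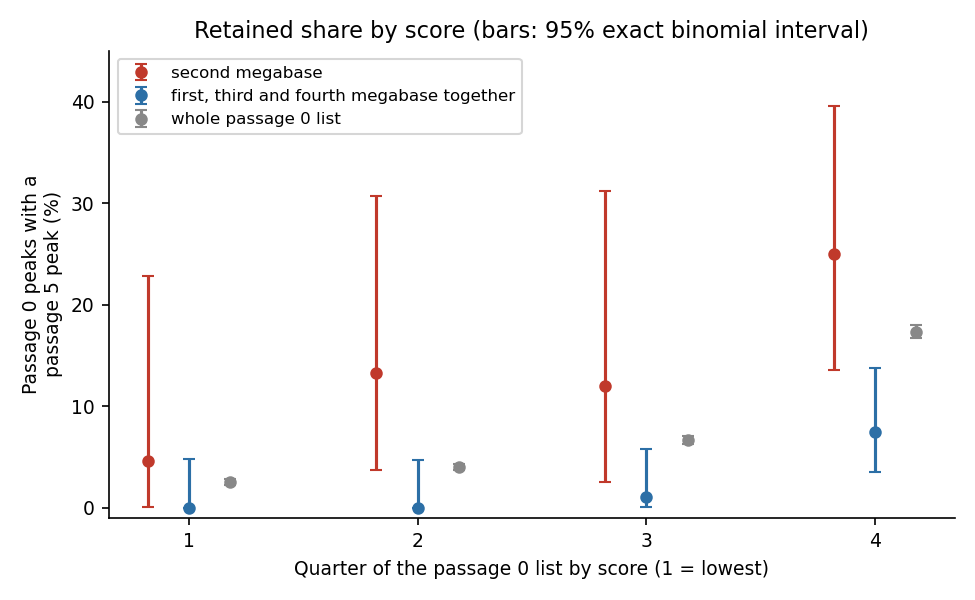
Retained share of the passage 0 peaks, in percent, in 4 classes of equal size of the passage 0 list by score, for the second megabase, the other three together and the whole list; points are shares and bars 95% exact binomial intervals. The second megabase runs from 4.55% to 25%, the other three from 0% to 7.5% and the list from 2.52% to 17.3%.

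The same held among the strongest peaks. Of the passage 0 peaks in the highest-scoring 10%, 7 of 19 in the second megabase were retained, or 36.8%. In the rest of the block 6 of 60 were, or 10%, and in the whole list 24.4%. The highest-scoring passage 0 peak of the block was retained. It lay in the first megabase at chr2:166257277-166259841, with a score of 983 and a width of 2565 bp, and a passage 5 peak of 653 bp with a score of 149 lay within it. The next 4 had no passage 5 peak. In the third megabase these were chr2:168342931-168344431, which scored 783 and lay 13.1 kb from a passage 5 peak, and chr2:168428877-168431124, with 757 and 51 kb. The others were chr2:169465338-169468393 in the fourth megabase, with 729.7 and 80.8 kb, and chr2:167059942-167062999 in the second, with 729 and 25.6 kb. The second megabase's own strongest passage 0 peak was thus not retained, although its share of retained peaks was the highest of the block. The widest passage 0 peak, of 3164 bp at chr2:166156938-166160101 with a score of 548, had no passage 5 peak within 23.2 kb. The next unretained peak by score was chr2:166130157-166132678 in the first megabase, with a score of 704 and a passage 5 peak 3.18 kb away.

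At passage 5, the 5 highest-scoring peaks of the block all lay in the second megabase, which held 30 of the 41, and each overlapped a passage 0 peak. The highest was chr2:167659880-167660818, with a score of 345 and a width of 939 bp. Under it lay the passage 0 peak chr2:167659662-167660894, with a score of 712 in its own list. The next were chr2:167590501-167591406 with a score of 233, chr2:167400059-167401337 with 226, chr2:167208920-167209626 with 199 and chr2:167395782-167396332 with 188. The passage 0 peaks under these 4 had scores of 507, 522, 584 and 337 in the passage 0 list. Outside the second megabase the best passage 5 scores were 149 in the first, 105 in the third and 157 in the fourth. These were the best of only 5, 3 and 3 peaks, so they are not like for like with the best of 30. Over the block the median passage 5 score was 114, beside 117 in the whole passage 5 list, so its passage 5 peaks as a group did not stand out by score.

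Of the 41 passage 5 peaks of the block, 31 shared a base with a passage 0 peak, or 75.6% (59.7% to 87.6%), against 69.9% of the whole passage 5 list, a share near the background. These 31 lay on 30 passage 0 peaks, since 1 passage 0 peak of the second megabase, chr2:167088794-167089830, carried a pair of them. Of the 31, 27 lay entirely within their passage 0 peak, or 87.1%, against 3650 of 4717 such pairs in the whole series, or 77.4%. The midpoints were a median of 80 bases apart, against 105. The passage 5 peak was a median of 55.1% as wide as the passage 0 peak it lay on, against 55.6% over the pairs of the whole series. The 4 that ran past the border of their passage 0 peak lay in the second megabase, which had 21 of the 31 pairs.

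The other 10 passage 5 peaks had no passage 0 peak, 9 of them in the second megabase and 1 in the fourth. Their median score was 114, close to the 115 of the shared ones, but none went above 166.7, whereas shared peaks reached 345. All 10 lay close to passage 0 peaks, at 0.036 to 3.59 kb with a median of 1.94 kb. In the block the midpoints of neighbouring passage 0 peaks were a median of 4.31 kb apart, so short distances are usual there. The highest-scoring of the 10 was chr2:167415997-167416486, which scored 166.7 and lay 2.61 kb from a passage 0 peak. It was followed by chr2:167198589-167199175, with 155 and 2.15 kb, and by chr2:167177955-167178438, with 124 and a gap of 36 bases to a passage 0 peak. Next came chr2:167676988-167677558, with 116 and 0.949 kb, and chr2:167578387-167578982, with 114 and 3.59 kb. The third of these would count as shared if borders within 500 bases were accepted, and it is the only one of the 10 of which this is true.

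Passage 0 peaks of the block stood in runs more often than those of the list. With gaps of at most 5 kb, 387 of 490 block peaks, or 79%, were in a run of 2 or more, against 57.4% of the whole list. This follows from the density for which the block was chosen and was not tested. By megabase the share was 81.1%, 79.2%, 78.4% and 77.1%, and the second megabase lay within the range of the others. Runs of 10 peaks or more numbered 5 and took in 66 peaks, or 13.5% of the block, against 3.8% of the list. The longest ran over 51.3 kb, from base 166225254 to base 166276580, with 19 passage 0 peaks that covered 48.7% of it. Of these 19, 2 were retained, among them the peak with the highest score of the block. A run of 13 at bases 166156938 to 166187148 had 1 retained peak, and another of 13 at 167582571 to 167615743, in the second megabase, had 2. The run of 11 at 168424592 to 168464013 and the run of 10 at 169853315 to 169875217 had 0 retained peaks.

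Set against other dense places, the block was long, and its megabases lay at both ends of the range of retention. Chromosomes 1 to 19 and X gave 2642 windows of 1 Mb, of which 39 held at least 100 passage 0 peaks. All 4 megabases of the block were among them, and no other place in the genome had 4 such windows in a row. The next longest row had 3, on chromosome 19 from 55 to 58 Mb. Outside the block, the 35 dense windows held 4 to 19 passage 5 peaks, with a median of 11, and their retained share ran from 1.74% to 15%, with a median of 6.93%. The second megabase, with 30 passage 5 peaks and 16% retained, lay above all 35 on both counts, in retained share by a small margin. The counts are linked, since a passage 0 peak is retained only where a passage 5 peak lies. Below all 35 on both counts was the fourth, with 3 and 1.53%. Its margin was small: the window at 119 to 120 Mb of chromosome 10 had 4 passage 5 peaks and 2 of 115 retained, against 2 of 131. The block was chosen for its density and unequal retention, so these places in the range are a description and not a test. The first and the third, with 3.79% and 2.94%, ranked 32 and 35 of 39 by retained share. Counted from the highest median passage 0 score, the 4 megabases ranked 6, 16, 21 and 19 of 39 in order along the chromosome. The closest to the second megabase in retained share were the window at 134 to 135 Mb of chromosome 4, with 15 of 100 retained, and that at 11 to 12 Mb of chromosome 8, with 15 of 102.

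**Figure D5:**
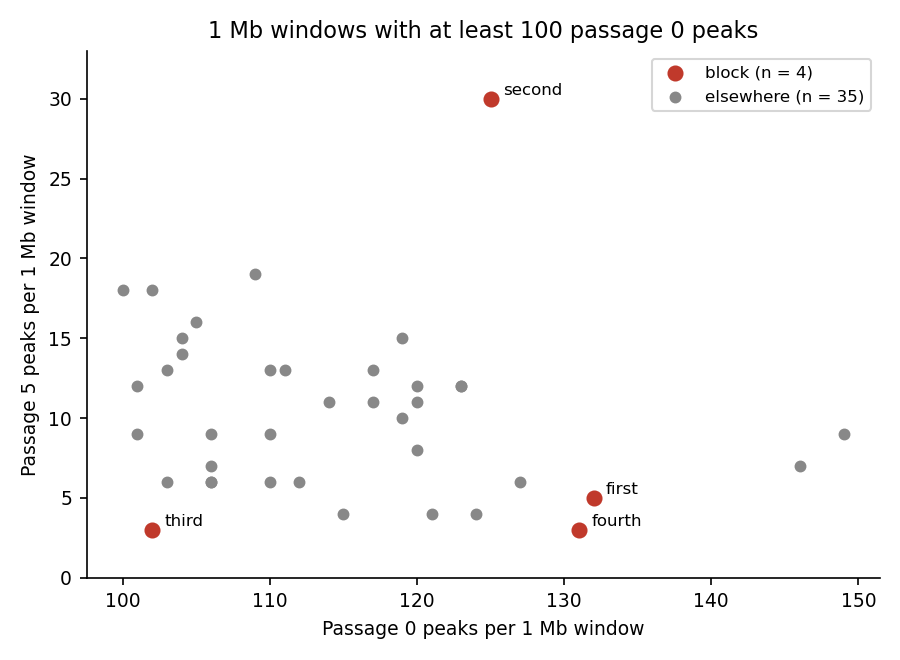
Passage 5 peaks against passage 0 peaks in the 39 windows of 1 Mb with at least 100 passage 0 peaks; each point is 1 window, with the megabases of the block in red. The second megabase, with 30 passage 5 peaks, lies above every other window, and the third and the fourth, with 3 each, lie below all of those elsewhere.

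On the rest of chromosome 2 there were 475 passage 5 peaks and 4068 passage 0 peaks, a ratio of 11.7% (10.6% to 12.8%), and 7.72% of the passage 0 peaks were retained (6.92% to 8.58%). As point values the block as a whole was somewhat below the rest of its chromosome in both. Its ratio was 8.37% (5.93% to 11.5%) and its retained share 6.12% (4.17% to 8.63%). Both values combined the second megabase with 3 that were lower. Among all 2642 windows the second megabase ranked 6 by passage 0 number and 2 by passage 5 number. The first, the third and the fourth ranked 3, 35 and 4 by passage 0 number, and 433, 724 and 724 by passage 5 number. Medians over all windows were 1 at passage 5 and 14 at passage 0, so even the lowest megabase of the block, with 3 at passage 5, was above it.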

How the data were processed

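The data were 2 lists of 5hmC peaks, 1 library at each passage. Per the submitters' processing notes, CASAVA 1.8, Bowtie 0.12.7 and MACS 1.4.1 and build mm9 were involved; not given in the sources used here were the role of each, the alignment settings, the handling of duplicates, any input control and the peak threshold. For each peak the authors deposited a position and an unnamed score, which was used only within 1 list. Read depth is not in the files.

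Starts were counted from 1. Peaks were assigned by midpoint and called shared from 1 common base; counts equalled those of bedtools 2.31.1, and the overlap step was tested on simulated data. Intervals of shares are 95% exact (Clopper-Pearson), and those of ratios of peak numbers are derived from such an interval. Limits given for covered bases and for differences of shares or of medians are not exact intervals of this kind. The limit for a count of 0 is 3 counts. Windows across the genome started at base 1. Named regions were the highest-scoring peaks of each list, of each megabase and of those without a partner, the widest peak, the richest and empty windows and the longest run. The block, the lists and the rules were chosen with earlier results of these data known. Alternatives were other score limits, merging, overlap rules, assignment by any overlap, a shifted grid and, chosen after seeing the data, the block without its second megabase. Python 3.11.15, numpy 2.4.6, pandas 2.3.3, scipy 1.17.1 and matplotlib 3.10.9 were used.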

Additional observations from a re-analysis of the deposited data

How the results depend on the processing

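For 6 results, 36 values were recomputed with score limits, merging, overlap rules and assignment changed. Of these, 31 stayed within the interval of the value in the text, 5 left it and 0 changed sign. Ratios and shares cannot be negative, so only the differences in retained share and in median score could have changed sign. With the 50% highest-scoring peaks of either list, the covered length at passage 5 was 3.34% of that at passage 0, and the difference in median score between retained and other passage 0 peaks was 303. A further setting kept only the highest-scoring passage 0 peaks, as many as the passage 5 list holds. Then 17% of the passage 0 peaks of the block were retained and 36.6% of the passage 5 peaks had a partner. The second megabase exceeded the first by 26.1 percentage points, with limits of -2.19 and 50.7 that include 0. The block without its second megabase was an alternative chosen after seeing the data. There the ratio of peak numbers was 3.01%, the ratio of covered bases 1.66% and the retained share 2.74%. The shared part of the passage 5 peaks was 90.9%, or 10 of 11 (58.7% to 99.8%). Of the 10 passage 5 peaks of the block without a partner, 9 lay in the second megabase and were thus left out. The cause of the other shifts was not tested. The second megabase had the highest retained share of the block, from 12.3% to 19%, under the 5 alternatives compared by megabase. With the upper 50% by score its difference from the first was 8.67 points, with limits of -0.661 and 18.9 that include 0. In that setting 0 of 57 peaks of the third were retained. No paired analysis was possible because each passage had 1 library, which also leaves no replicate to omit. Unknown depth limits every comparison of peak numbers.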
